A study of Mus musculus with 12 samples.

Results

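The genes described here encode the classical secreted proteins of fetal and adult liver: albumin (Alb), alpha-fetoprotein (Afp), the apolipoproteins Apoa1, Apoa2 and Apob, fetuin-A (Ahsg), transferrin (Trf) and the 3 chains of fibrinogen (Fga, Fgb, Fgg). They were taken as a named set of 10, and every probe set whose only gene symbol in the array annotation was a member was used. This gave 17 probe sets for 9 genes, among 45037 probe sets tested and 18193 genes with a probe set of their own. The annotated probe set of Trf also carries the symbol Srprb, so Trf was not measured on its own and no value is given for it.

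The arrays held RNA from single mouse embryonic pancreata. At each of E14.5 and E16.5, 2 were wildtype and 4 were β-catenin KO. The KO embryos were Pdx1Cre/+; beta-cateninflox/flox, bred from parents that were both Pdx1Cre/+; beta-cateninflox/+. Whether the wildtype embryos carried Cre or a floxed allele is not given in the sources used here. Cre was driven by Pdx1 sequences, which are active in the pancreatic epithelium and not in its mesenchyme, and the study considered its expression likely to be mosaic. No agent was given to any group. E14.5 is the day in the array names; the design text has E14.6.

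Each deposited value is a ratio to the average of the 2 wildtype pancreata of that day. A ratio of 1 is therefore the wildtype mean, and the level of a transcript, its rank among genes and its change between the days cannot be read from them. Whether a liver gene was transcribed at all in a pancreas is likewise not in them. In a whole pancreas, fewer cells of a type and less RNA per cell cannot be told apart.

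Hepatocytes and pancreatic cells both arise from foregut endoderm, and the ventral pancreas forms beside the liver bud. Albumin and alpha-fetoprotein are carriers in adult and fetal plasma, and Afp is also made by the visceral endoderm of the yolk sac and is silenced in liver around birth. Apolipoproteins A-I and A-II are the main proteins of high density lipoprotein, and apolipoprotein B carries triglyceride out of liver and intestine. Fetuin-A binds calcium phosphate in plasma, and fibrinogen, assembled from its 3 chains, is the precursor of the fibrin clot. In a pancreas sample such transcripts can come from endodermal cells that express them or from adjoining tissue.

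Several of these genes are neighbours. By RefSeq's gene order (GRCm38.p6), Alb and Afp lie side by side on chromosome 5 with 0 genes between them, and Fgg and Fga lie side by side on chromosome 3, with 1 lncRNA gene between Fga and Fgb. Their promoters are shown because the genes are neighbours, and were searched for the letters of a liver promoter element. HNF1, a homeodomain factor of liver, binds an element of which GTTAAT is the core. These letters were searched on both strands (on the opposite strand they read ATTAAC) in the 300 bases from 250 before to 50 after each RefSeq start. They were present in 4 of the 10 promoters of the 9 measured genes (Apoa2 has a pair), and in 7.1% of all 32851 promoters. The 120 bases before each start are printed 5′ to 3′ on the strand of the gene, with these letters in capitals.
Alb, plus strand, chr5:90460750-90460869: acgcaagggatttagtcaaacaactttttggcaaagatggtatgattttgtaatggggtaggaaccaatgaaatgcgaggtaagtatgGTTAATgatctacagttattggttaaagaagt
Afp, plus strand, chr5:90490594-90490713: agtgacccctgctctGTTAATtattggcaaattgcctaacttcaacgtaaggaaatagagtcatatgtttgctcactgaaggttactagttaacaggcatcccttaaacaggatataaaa
Fga, plus strand, chr3:83026033-83026152: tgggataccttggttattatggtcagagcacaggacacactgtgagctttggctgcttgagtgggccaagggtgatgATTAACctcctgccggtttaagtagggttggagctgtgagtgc
Fgb, minus strand, chr3:83049864-83049983: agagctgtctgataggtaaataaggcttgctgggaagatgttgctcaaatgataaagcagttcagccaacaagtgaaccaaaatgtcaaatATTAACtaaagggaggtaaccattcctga
Fgg, plus strand, chr3:83007604-83007723: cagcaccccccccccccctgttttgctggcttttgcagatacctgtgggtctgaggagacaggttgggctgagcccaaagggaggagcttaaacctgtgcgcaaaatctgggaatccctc
The first of the capitals stood at position -32 from the start in Alb, -105 in Afp, -43 in Fga and -29 in Fgb. They were not found in the windows of Fgg, Apoa1, Apoa2, Apob and Ahsg. A match is a description of these letters and not a bound site.

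None of the liver plasma protein genes passed the test at either day. At E14.5, 0 of 17 probe sets had a limma adjusted p under 0.05 (0.0111% of all probe sets did), and 0 of 17 had an unadjusted p under 0.05 (6.86% of all). At E16.5, 0 of 17 passed (2.62% of all), and 3 of 17 had an unadjusted p under 0.05 (16.6% of all), namely those of Alb and Fgb and 1 of the 4 of Apoa1. The methods' t-test, run here over all probe sets without the fold filter that preceded it in the study, gave 0 of 17 at E14.5 and 2 of 17 at E16.5 before correction, and 0 at both days after it. The test of the difference between the KO effects of the 2 days called 0 of 17 (0.349% of all), with 0 at an unadjusted p under 0.05 (10.4% of all). With 2 wildtype pancreata a day and standard errors of 0.10 to 0.53 on the log2 scale, a probe set that was not called may still differ.

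At E14.5 the genes lay on both sides of the wildtype, from Afp, with a log2 fold change of -0.66, to Fgb, with 0.44. The median over the 9 genes, 1 probe set each, was 0.07, against 0.01 over all genes. It was -0.07 over all 17 probe sets and -0.0063 over the 9 genes without KO_540G, so it has no stable sign. At this day 7 of the 17 probe sets had a log2 fold change above 0 (55.4% of all). At E16.5 the median was 0.22 over the 9 genes, against 0.03 over all genes, and 0.10 over the 17 probe sets, and 11 of 17 lay above 0 (56.1% of all). The log2 fold change was higher at E16.5 than at E14.5 on 15 of 17 (52.3% of all), none of which passed. At E16.5 all 4 KO pancreata lay above both wildtype pancreata on 5 of the 17 probe sets, where 14.5% of all probe sets did so. These were the probe sets of Alb, Fgb and Fgg and 2 of Apoa1. All 4 KO pancreata lay below both wildtype on 0 of 17 (11.1% of all). At E14.5, 0 of 17 lay wholly above and 0 of 17 wholly below (8.17% and 8.06% of all).

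**Figure D1:**
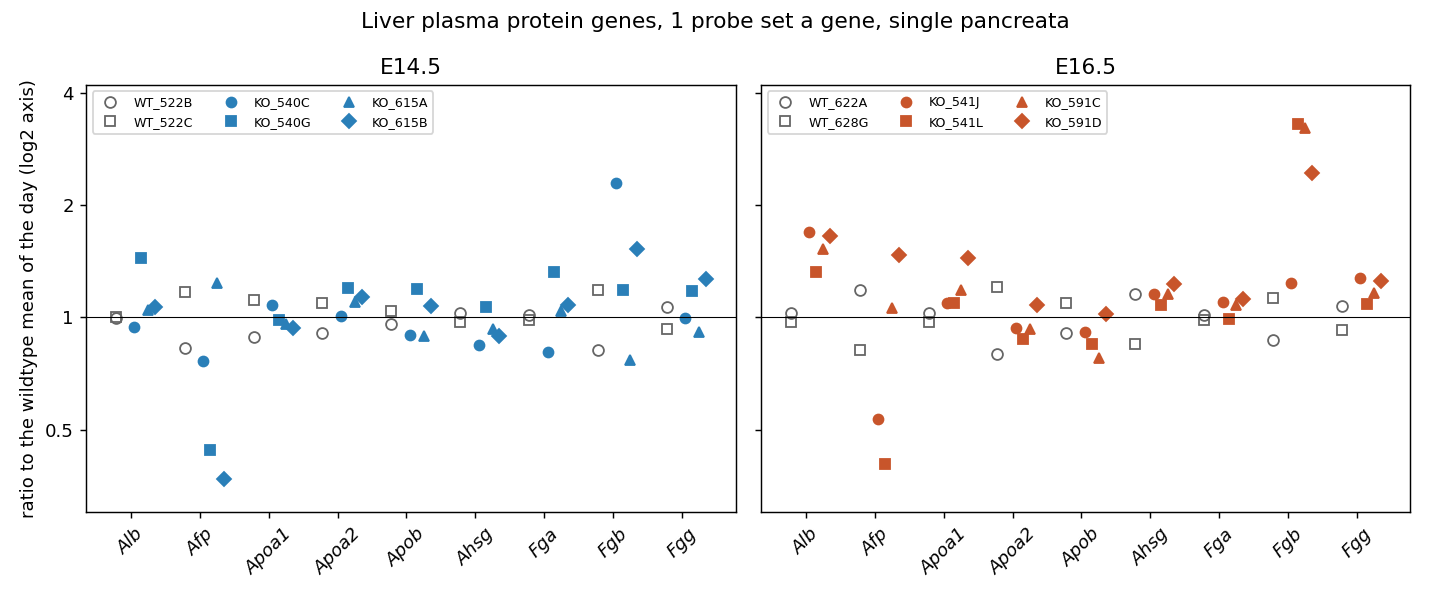
Ratio to the wildtype mean of the day (log2 axis) for 1 probe set of each measured gene, with grey open symbols for the 2 wildtype and filled symbols for the 4 KO pancreata, E14.5 on the left and E16.5 on the right. Alb lies between 1.32 and 1.69 in the E16.5 KO pancreata, and Afp and Fgb spread widely. The KO ratios of the other genes run from 0.779 (Apob, KO_591C) to 1.44 (Apoa1, KO_591D), so they overlap the range of Alb.

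Pancreata KO_540G (E14.5) and KO_591D (E16.5) stood apart from the rest over all probe sets. Their median ratios were 1.07 and 1.04, against 0.970 to 1.01 in the other 10 arrays, and they received the lowest array weights in limma, 0.281 and 0.422 against 0.835 to 1.69. The median ratio over the 9 liver plasma protein genes was also highest in these arrays within their day, at 1.19 for KO_540G and 1.25 for KO_591D, against 0.941 to 1.07 in the other E14.5 KO and 1.08 to 1.15 in the other E16.5 KO. The part of these arrays in each result was not tested except by leaving them out. Ctnnb1, the targeted gene, has 3 probe sets of which none passed at either day (limma adjusted p = 0.152 to 0.920), and whether they lie in the deleted exons was not established.

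Albumin had the smallest p of the set. At E14.5 the wildtype ratios were 0.997 in WT_522B and 1.003 in WT_522C, and the KO ratios were 0.941 for KO_540C, 1.44 for KO_540G, 1.05 for KO_615A and 1.06 for KO_615B. At E16.5 the wildtype ratios were 1.03 in WT_622A and 0.971 in WT_628G, and the KO ratios were 1.69 for KO_541J, 1.32 for KO_541L, 1.52 for KO_591C and 1.65 for KO_591D. The KO and wildtype pancreata overlapped at E14.5, where KO_540G alone was clearly higher, and did not overlap at E16.5. The KO mean was 1.12 ± 0.221 (SD, n = 4) at E14.5 and 1.55 ± 0.165 (SD, n = 4) at E16.5. The fitted fold was 1.54 at E16.5, with a 95% interval of 1.22 to 1.95 that is not adjusted for the number of probe sets. The log2 fold change was 0.15 (standard error 0.16) at E14.5 with a limma adjusted p of 0.934, and 0.62 (standard error 0.16) at E16.5 with a limma adjusted p of 0.0588. Of all probe sets, 3.1% had an E16.5 log2 fold change at least as high. The difference between the days, 0.47 (standard error 0.22), did not pass (limma adjusted p = 0.493).

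The call of Alb at E16.5 turned on the setting. It passed in 5 of 21 alternatives, with a limma adjusted p of 0.0161 without KO_540G, 0.0151 without KO_540G and KO_591D, 0.0249 with array weights, 0.0431 after centring each array on its median and 0.0476 with the number in the array name as a block. In the other 16 it did not, and the adjusted p reached 0.469 after quantile normalization. The log2 fold change itself ranged from 0.52 to 0.70 over all 21. KO_540G is an E14.5 array, so leaving it out changes the estimate of the spread at E16.5 and not the E16.5 difference.

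Alpha-fetoprotein, the neighbour of albumin, had another pattern. On the first of its 5 probe sets, 1416646_at, the E14.5 ratios were 0.829 in WT_522B and 1.17 in WT_522C, then 0.762 for KO_540C, 0.441 for KO_540G, 1.23 for KO_615A and 0.368 for KO_615B. At E16.5 they were 1.18 in WT_622A and 0.820 in WT_628G, then 0.535 for KO_541J, 0.405 for KO_541L, 1.06 for KO_591C and 1.47 for KO_591D. The KO pancreata thus fell on both sides of the wildtype pair at each day, with 3 of 4 below both at E14.5 and 2 of 4 below both at E16.5. The log2 fold changes of the 2 days were -0.66 and -0.37, each with a standard error of 0.53 (adjusted p from limma = 0.902 and 0.825). The SD of the log2 ratios among the KO pancreata reached 0.79 and 0.86 at the 2 days, percentiles 99.5 and 99.3 of all genes.

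The other Afp probe sets differed in span. On 1416645_a_at the KO pancreata ran from 0.368 for KO_615B to 1.06 for KO_615A at E14.5, and from 0.457 for KO_541L to 1.56 for KO_591D at E16.5. On 1436879_x_at they ran from 0.507 for KO_615B to 1.22 for KO_615A, and from 0.561 for KO_541L to 1.42 for KO_591D. The span was narrower on 1436881_x_at, 0.719 to 1.06 and 0.911 to 1.46, and 1436880_at stayed near 1, with all 8 KO ratios between 0.857 and 1.12. KO_591D was the highest KO pancreas of its day on all 5 probe sets, and KO_615A was on 4 of the 5, with 1436880_at as the exception. All 5 log2 fold changes lay below 0 at E14.5 (-0.73 to -0.12), and 4 of 5 did at E16.5 (-0.37 to 0.18).

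**Figure D2:**
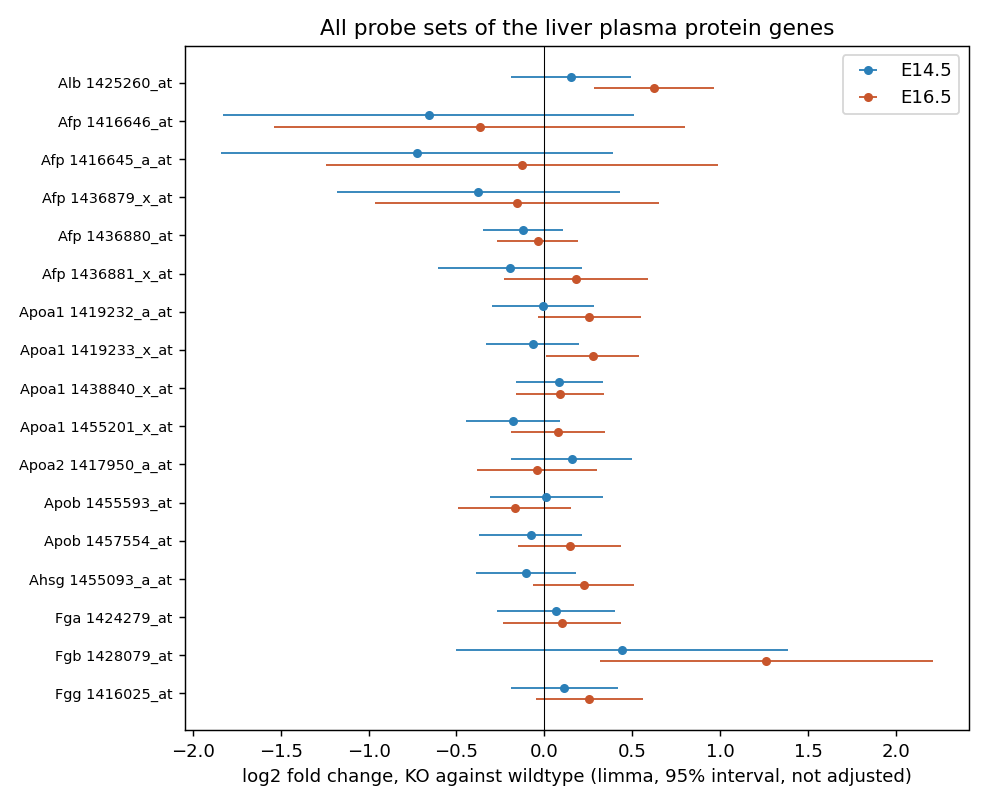
Log2 fold change of KO against wildtype (horizontal axis) with its 95% interval from limma, not adjusted for the number of probe sets, for all 17 probe sets at E14.5 (blue) and E16.5 (orange). The intervals of Alb, Fgb and 1419233_x_at of Apoa1 at E16.5 lie above 0, and those of Fgb and of 3 Afp probe sets are the widest.

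Fibrinogen is built from all of its chains, and their ratios were unlike each other, a difference between genes that was not tested. Fgb, the beta chain, had E14.5 ratios of 0.818 in WT_522B and 1.18 in WT_522C, and of 2.30 for KO_540C, 1.19 for KO_540G, 0.767 for KO_615A and 1.52 for KO_615B. At E16.5 they were 0.870 in WT_622A and 1.13 in WT_628G, and 1.24 for KO_541J, 3.30 for KO_541L, 3.22 for KO_591C and 2.44 for KO_591D. All 4 KO pancreata lay above both wildtype pancreata at E16.5, KO_541J only narrowly, whereas KO_615A lay below both at E14.5. The log2 fold changes of the 2 days were 0.44 and 1.26, each with a standard error of 0.43 (adjusted p from limma = 0.930 and 0.157). The fitted fold at E16.5 was 2.40, with an unadjusted 95% interval of 1.24 to 4.62. In the 21 alternatives the adjusted p ran from 0.0773 to 0.841, so the call was made in 0 of them. The spread among the KO pancreata was again wide, at percentiles 99.0 and 98.2 of all genes.

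The alpha and gamma chains stayed closer to the wildtype mean. Fga, the alpha chain, had ratios of 0.808 for KO_540C, 1.32 for KO_540G, 1.04 for KO_615A and 1.08 for KO_615B, and of 1.10 for KO_541J, 0.993 for KO_541L, 1.08 for KO_591C and 1.12 for KO_591D. Its wildtype values lay between 0.985 and 1.01, and KO_541L fell among them. Fgg, the gamma chain, had ratios of 0.998 for KO_540C, 1.18 for KO_540G, 0.913 for KO_615A and 1.27 for KO_615B, and of 1.28 for KO_541J, 1.08 for KO_541L, 1.16 for KO_591C and 1.25 for KO_591D. Its wildtype values were 0.933 and 1.07 at E14.5 and 0.924 and 1.08 at E16.5, so KO_541L exceeded the higher wildtype only narrowly. At E16.5 the log2 fold change was 0.10 for Fga (standard error 0.15, limma adjusted p = 0.832) and 0.26 for Fgg (standard error 0.14, limma adjusted p = 0.406).

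Apolipoprotein A-I has 4 probe sets. On 1419232_a_at the E14.5 KO pancreata lay between 0.936 and 1.08, inside the wildtype pair at 0.884 and 1.12. At E16.5 they were 1.10 for KO_541J, 1.09 for KO_541L, 1.18 for KO_591C and 1.44 for KO_591D, against 1.03 and 0.975 in the wildtype. On 1419233_x_at the E16.5 KO ratios were 1.16 for KO_541J, 1.17 for KO_541L, 1.24 for KO_591C and 1.26 for KO_591D, against 1.08 and 0.918. Both probe sets were thus higher in every E16.5 KO pancreas, by log2 fold changes of 0.26 and 0.27 that did not pass (limma adjusted p = 0.376 and 0.278). The remaining pair, 1438840_x_at and 1455201_x_at, had log2 fold changes of 0.09 and 0.08 at E16.5 and overlapped the wildtype.

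Apolipoprotein A-II was the gene with the widest E16.5 wildtype pair, at 0.796 in WT_622A and 1.20 in WT_628G, and all 4 KO pancreata, between 0.875 and 1.08, lay inside it. At E14.5 its KO pancreata lay between 1.01 and 1.20. Apob, on 1455593_at, lay between 0.893 and 1.19 in the E14.5 KO pancreata and between 0.779 and 1.02 in those of E16.5. Its 2 probe sets went opposite ways at E16.5, with log2 fold changes of -0.17 and 0.14 (limma adjusted p = 0.660 and 0.687). Fetuin-A (Ahsg) had E16.5 ratios of 1.16 for KO_541J, 1.08 for KO_541L, 1.15 for KO_591C and 1.23 for KO_591D, and WT_622A, at 1.15, lay among these. Its log2 fold changes of the 2 days were -0.10 and 0.22 (adjusted p from limma = 0.954 and 0.449).

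Pancreas by pancreas, the genes fell into different patterns. Alb and Fga were both lowest in KO_540C and highest in KO_540G at E14.5, and both were lowest in KO_541L among the E16.5 KO pancreata. The median ratio of all probe sets had these same extremes among the KO pancreata, at 0.970 for KO_540C, 1.07 for KO_540G and 0.996 for KO_541L. With group means subtracted, Alb had a Pearson correlation of 0.74 with the hepatocyte enzyme median, 0.77 with the stomach one and 0.76 with the intestinal one. Afp shared its order over the E16.5 KO pancreata with the acinar genes, where the median ratio of 18 acinar genes was 0.109 for KO_541J, 0.0701 for KO_541L, 0.254 for KO_591C and 0.363 for KO_591D. From low to high the order was KO_541L, KO_541J, KO_591C, KO_591D for Afp and for the acinar median. The median of 16 hepatocyte and endoderm transcription factors ran nearly so, with the lowest pair exchanged, at 0.793 for KO_541J, 0.881 for KO_541L, 0.987 for KO_591C and 1.01 for KO_591D. Over the 12 arrays, with group means subtracted, the Pearson correlation of Afp was 0.84 with that median and 0.82 with the acinar one. It was 0.57 with the median of 6 hepatoblast markers. Factors of the first list, such as Foxa3 and Hnf4a, are also expressed in pancreatic epithelium, so these medians do not tell cell types apart. At E14.5 the acinar median was highest in KO_615A (1.33) and lowest in KO_615B (0.742), as Afp was, but KO_540G, at 1.06, had a low Afp. Fgb resembled the islet genes in part, with the median of 15 islet genes at 1.63 for KO_540C, 1.36 for KO_540G, 1.12 for KO_615A, 1.66 for KO_615B, 1.11 for KO_541J, 2.02 for KO_541L, 1.80 for KO_591C and 0.956 for KO_591D. KO_591D, with a high Fgb and an islet median below 1, was the exception. These are descriptions over 12 arrays, and the part of acinar or islet content in the values of Afp and Fgb was not tested.

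**Figure D3:**
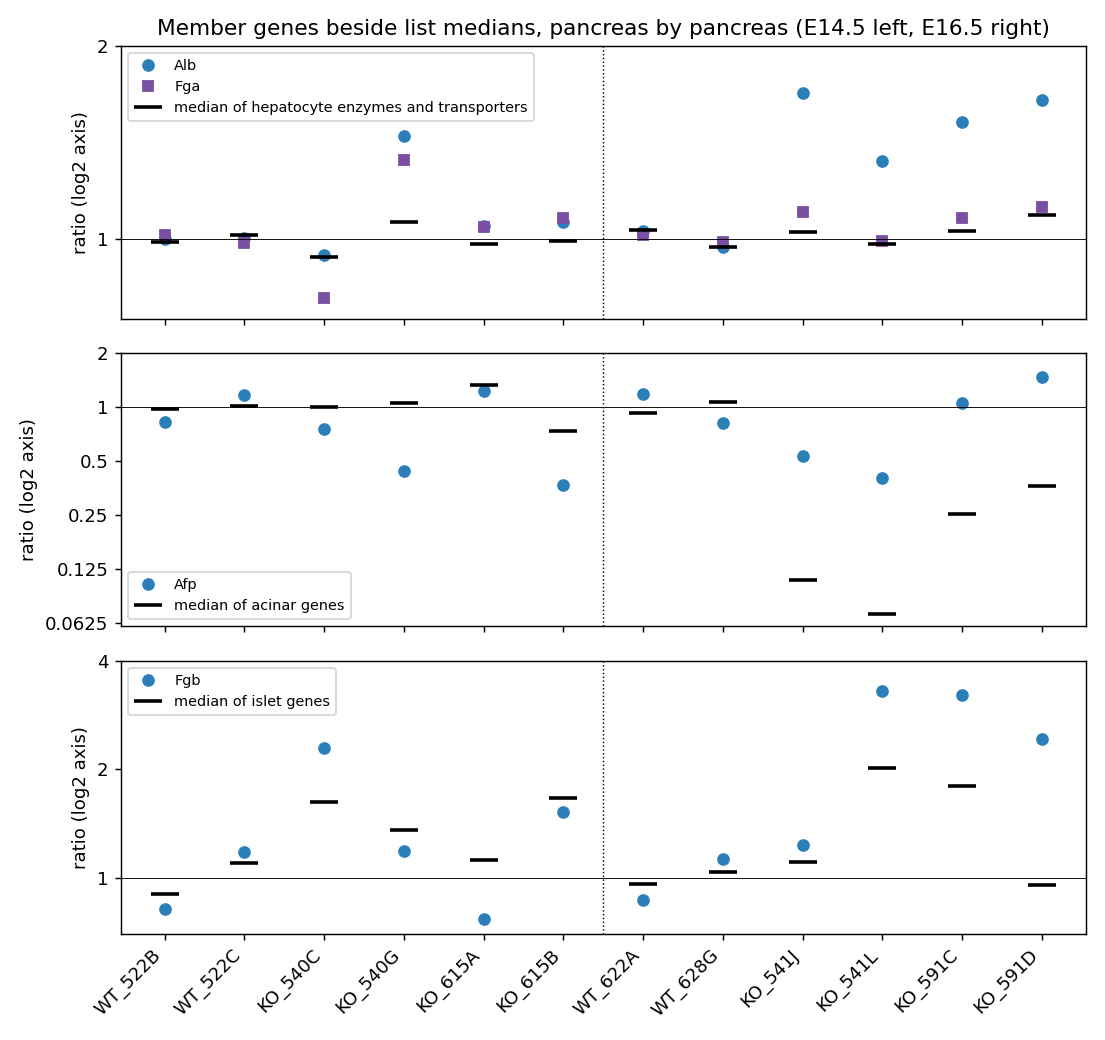
Ratio to the wildtype mean (log2 axis) in each of the 12 pancreata, E14.5 left of the dotted line and E16.5 right, for Alb and Fga (top), Afp (middle) and Fgb (bottom), beside black bars for the median of hepatocyte enzyme, acinar and islet genes. The hepatocyte enzyme median stays between 0.935 and 1.09, while Afp shares the order of the acinar median at E16.5 and Fgb exceeds 2 in KO_540C, KO_541L and KO_591C, where the islet median is 1.63 to 2.02, and in KO_591D, where it is 0.956.

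Further liver genes gave few calls. Of 37 other plasma proteins of hepatocytes measured, 0 rose and 1 fell at E16.5 (all genes: 160 rose and 392 fell of 18193), and their median log2 fold change was -0.03. The one that fell was Serpinf2, which encodes the plasmin inhibitor alpha-2-antiplasmin, at 0.552 ± 0.103 (SD, n = 4) (limma adjusted p = 0.0250). Ttr and Rbp4, the carriers of thyroid hormone and retinol, are both also made by islet cells. Ttr was at 0.710 ± 0.133 (SD, n = 4) and Rbp4 at 1.66 ± 0.578 at E16.5 (limma adjusted p = 0.169 and 0.331), and the other 3 Ttr probe sets had log2 fold changes of -0.20 to 0.24. Rbp4, like Fgb, was highest in KO_540C at E14.5 (2.03) and in KO_541L at E16.5 (2.28).

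Of 33 hepatocyte enzymes and transporters measured, 1 rose and 2 fell at E16.5 (9.09% of the list, against 3.03% of all genes). The median log2 fold change was 0.04. Uox, the urate oxidase of liver peroxisomes, rose to 1.46 ± 0.115 (SD, n = 4), with 1.31 for KO_541J, 1.46 for KO_541L, 1.59 for KO_591C and 1.48 for KO_591D (limma adjusted p = 0.0292). Mat1a, the methionine adenosyltransferase of liver, fell to 0.311 ± 0.168 (SD, n = 4), and Asl, the argininosuccinate lyase of the urea cycle, to 0.390 ± 0.0934 (limma adjusted p = 0.0444 and 0.0138). Cps1, which opens the urea cycle in liver mitochondria, was at 0.971 ± 0.0849 (SD, n = 4), and Fabp1, the liver fatty acid binding protein, at 0.956 ± 0.0786 (limma adjusted p = 0.920 and 0.846). The median of the list lay between 0.981 and 1.09 in the 4 E16.5 KO pancreata, in which Alb was 1.32 or higher.

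Of the transcription factors that drive the liver plasma protein genes in hepatocytes, those that passed the test had fallen. Of 16 hepatocyte and endoderm factors measured, 0 rose and 3 fell at E16.5 (18.8% of the list, against 3.03% of all genes). The list's median log2 fold change was -0.12. Foxa3, Hnf4a and Gata4 fell, the first to between 0.231 and 0.349 and Hnf4a to between 0.367 and 0.503 in the 4 KO pancreata. Gata4 was at 0.376 ± 0.120 (SD, n = 4), with a limma adjusted p of 0.0458, on 1 of its 2 probe sets, and the other had a log2 fold change of -0.09 (limma adjusted p = 0.851). Hnf4a fell on 2 of its 4 probe sets, and the other pair had log2 fold changes of -0.08 and 0.16. These factors are also expressed in pancreatic epithelium. Cebpa, a factor of differentiated hepatocytes, was at 0.896 ± 0.150 (SD, n = 4), and Prox1 and Hhex, factors of both liver and pancreas, were at 1.07 ± 0.119 and 1.14 ± 0.261 (limma adjusted p = 0.769, 0.793 and 0.831). Earlier, at E14.5, Hhex stood at 0.525 ± 0.170 (SD, n = 4), and this did not pass (limma adjusted p = 0.516).

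Markers of other tissues that could adjoin a dissected pancreas held 1 call a list or 0 at E16.5, where 3.03% of all genes were called. Of 14 intestinal genes 1 fell, Vil1, which encodes the microvillus protein villin, at 0.430 ± 0.0770 (SD, n = 4) (7.14% of the list), and of 12 stomach genes 1 fell (8.33%), Tff2, a trefoil peptide of gastric mucus, at 0.625 ± 0.0617 (limma adjusted p = 0.00356 and 0.0160). Of 9 yolk sac and visceral endoderm genes, the tissue that shares Afp, 1 fell (11.1%), Cubn, which encodes the endocytic receptor cubilin, at 0.462 ± 0.0832 (SD, n = 4) (limma adjusted p = 0.00390). A second Cubn probe set was at 0.931 ± 0.0330 (SD, n = 4) and did not pass (limma adjusted p = 0.765). Cdx2, the caudal factor of intestinal identity, was at 1.01 ± 0.125 (SD, n = 4). The globins Hba-a1 and Hbb-b2, whose probe sets may also detect close copies, were at 1.09 ± 0.0434 and 0.837 ± 0.0832 (SD, n = 4) (limma adjusted p = 0.629 and 0.822). Of 6 hepatoblast markers, 7 bile duct genes and 16 erythroid genes, 0 were called at E16.5 (limma). Those at an unadjusted p under 0.05 numbered 2, 1 and 1, where 3351 of all 18193 genes did so. The hepatoblast and bile duct lists had median log2 fold changes of -0.42 and -0.40, and the hepatoblast median ratio was 0.650 to 0.815 in the E16.5 KO pancreata, against 1.21 and 0.785 in the wildtype. The median ratio of the erythroid genes, a trace of blood and fetal liver, was 0.969 to 1.003 in the E16.5 KO pancreata. In the same pancreata 11 of 18 acinar genes fell and 0 of 15 islet genes were called (4 at an unadjusted p under 0.05, limma). The acinar factor Ptf1a and the enzyme Cpa1 did not pass, at 0.375 ± 0.241 and 0.531 ± 0.179 (SD, n = 4), nor did insulin (Ins2), at 1.21 ± 0.440 (limma adjusted p = 0.331, 0.335 and 0.858). At E14.5, 0 genes of any of these lists were called by limma. Those at an unadjusted p under 0.05 numbered 0 to 6 a list, and 1468 over all 18193 genes.

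Of 17 receptors and handlers of iron, lipoprotein and fibrinogen measured, 1 rose at E16.5 (5.88% of the list, against 3.03% of all genes). This was Lpl, the lipoprotein lipase that clears triglyceride from apolipoprotein B particles, at 1.69 ± 0.389 (SD, n = 4) (limma adjusted p = 0.0440). A second Lpl probe set was at 1.06 ± 0.119 (SD, n = 4) and did not pass (limma adjusted p = 0.853). On the first Lpl probe set the E14.5 ratio was 1.28 ± 0.0363 (SD, n = 4), with a limma adjusted p of 0.739.

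**Figure D4:**
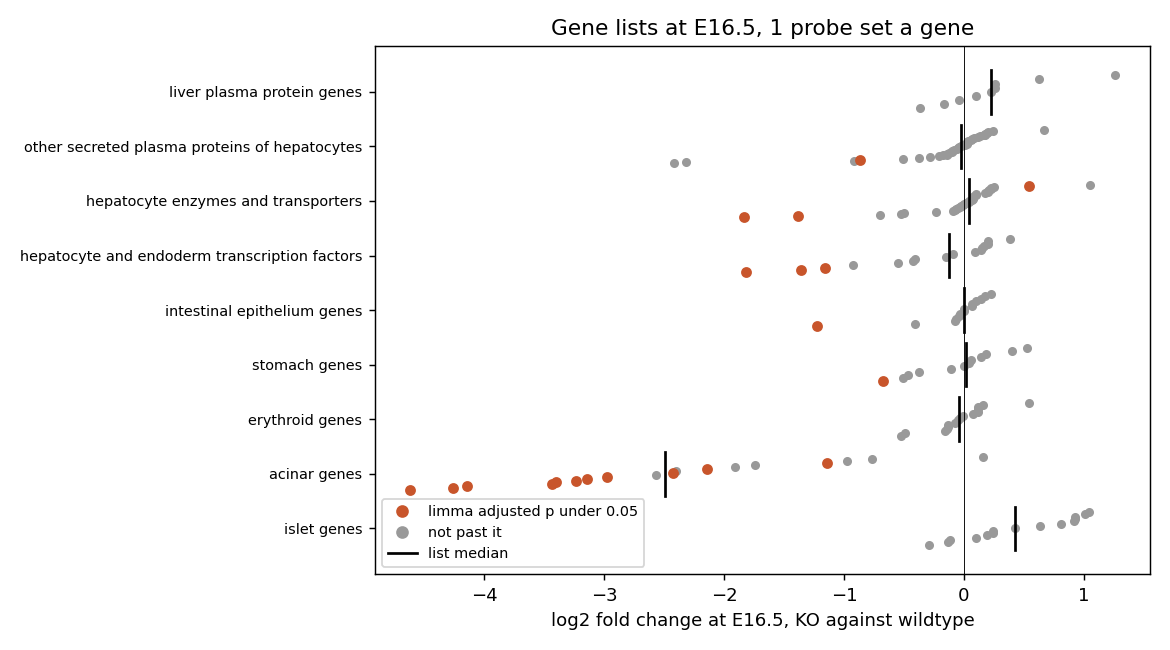
Log2 fold change of KO against wildtype at E16.5 (horizontal axis) for each gene of 9 lists, 1 probe set a gene, with orange points past a limma adjusted p of 0.05, grey points not past it and a black line at each list's median. The liver plasma protein genes hold no orange point and have a median of 0.22, while the acinar genes have a median of -2.50.

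Likeness to the liver plasma protein genes was taken as the Pearson correlation with their mean profile over the 12 arrays after the group means were subtracted. The most alike were Eef2k at 0.96 and Tssk4 at 0.95, followed by Smyd5, Pfkfb2, Pabpc4, 4930432J09Rik, Nr5a1, Tmem29, Ttll9 and Bcl7a at 0.94 or 0.95. None of these is a plasma protein gene. In KO_540G and KO_591D the median ratio of all probe sets (1.07 and 1.04) and that of the members (1.19 and 1.25) were the highest of their day. The part of these arrays in the correlations was not tested.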

How the data were processed

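RNA of 12 single pancreata was amplified in 2 rounds and hybridised to Affymetrix MOE430 2.0 arrays. The authors summarised the arrays with RMA in GeneSpring and deposited each probe set as a linear ratio to the mean of the day's wildtype arrays: in the values, each wildtype pair sums to 2 within 3e-07. Of 45101 probe sets, 64 controls were set aside. Log2 ratios were fitted with limma 3.58.1 (R 4.3.3) in 4 groups (8 residual degrees of freedom), and p-values were adjusted (Benjamini-Hochberg) over all 45037 probe sets, limit 0.05. The fit was tested on simulated data with independent noise in each probe set and array. These held no array-wide shift, so they do not bear on arrays such as KO_540G and KO_591D. The labels name no litters, so p-values measure only the spread between these pancreata.

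Of a gene with several probe sets, the plainest name (_at, then _a_at, then _s_at or _x_at), then the lowest number, comes first. Other genes named are list genes with an adjusted p under 0.05, a fixed set of liver, gut, blood and pancreas markers, and the 10 genes most alike. The members and lists were chosen with earlier results of these data known. Alternatives were other variances, normalizations, array weights, a block on the number in the array name (statmod 1.5.0), no _x_at or _s_at probe sets, the methods' t-test and leaving out arrays. Promoters are RefSeq's (GRCm38.p6).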

Additional observations from a re-analysis of the deposited data

How the results depend on the processing

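The direction of Alb, Fgb and Fgg at E16.5 and of Afp at E14.5 held in each of the 21 alternatives. A held direction was common and not particular to these genes. On 1 probe set a gene, the directions that did not hold were those of Apoa2 at E16.5 and of Apoa1, Apob and Fga at E14.5. Of the 17 probe sets, 1 was called at E16.5, that of Alb, after centring each array on its median, with array weights, with the number in the array name as a block, and without KO_540G and KO_591D, which were left out after seeing the data. Leaving out 1 array at a time gave 0 to 1 calls, the 1 being Alb without KO_540G. The median log2 fold change of the 9 genes at E14.5 was -0.0063 without KO_540G and without KO_540G and KO_591D, so its sign rests on that array, and it ran from -0.0063 to 0.15 over the single omissions. The median difference between the days, 0.26, ran from 0.10 (without WT_522C or WT_628G) to 0.31. The cause of these shifts was not tested.

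Over all probe sets, calls at E16.5 (361 higher, 821 lower) were 10 and 61 after quantile normalization, 7 and 79 with a trended and robust variance, 13 and 146 with the day fitted alone, 1048 and 1332 with array weights, 0 and 0 with the methods' t-test corrected over all probe sets rather than over the study's fold-filtered list, 1572 and 1290 without KO_591D, and 1960 and 1708 without KO_540G and KO_591D. No paired analysis was possible because replicates were numbered in accession order, which pairs nothing, and no number in the array names is shared between groups. A filter on dim probe sets was not run, since ratios hold no signal level. The number of arrays limits the precision.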

Other observations

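A few secreted liver proteins outside the main set had low ratios at both days, and these were chosen after their values were seen. Serpina6, the corticosteroid-binding globulin, had ratios of 0.0482 for KO_540C, 0.0741 for KO_540G, 0.787 for KO_615A and 0.0371 for KO_615B. At E16.5 the ratios were 0.213 for KO_541J, 0.0338 for KO_541L, 0.320 for KO_591C and 0.502 for KO_591D. Vtn, vitronectin, stood at 0.256, 0.256, 0.889 and 0.192 in those E14.5 pancreata and at 0.123, 0.0677, 0.303 and 0.644 in those of E16.5. KO_615A and KO_591D were the highest KO pancreata for both genes, as they were for Afp. At E16.5 both genes ran KO_541L, KO_541J, KO_591C, KO_591D from low to high, as the acinar median did. This order is also a split by the number in the array name. At E14.5 no such split was seen, since KO_615A and KO_615B, which share a number, were the highest and the lowest for both genes. The cause of these orders was not tested. Neither passed on these probe sets (limma adjusted p, for E14.5 0.637 and 0.739, for E16.5 0.333 and 0.143), while the other Vtn probe set fell at E16.5 to 0.339 ± 0.132 (SD, n = 4) (limma adjusted p = 0.0202).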
